A study of Mus musculus with 6 samples.

Results

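Nt5e, Entpd1 and Ada, 3 of the 14098 genes in the count table, were taken as rows by name and followed across the splenic regulatory T (Treg) cells of the series. Nt5e encodes CD73, Entpd1 encodes CD39, and Ada encodes adenosine deaminase. Treg cells are T cells that express Foxp3 and hold immune responses in check. EGFP+ Treg cells were sorted by FACS after CD4 enrichment, and their RNA was profiled with Chromium 3′ v2 chemistry. Of the 6 samples, 3 were cKO (Bach2fl/fl Foxp3EGFP-Cre-ERT2) and 3 were WT (Bach2+/+ Foxp3EGFP-Cre-ERT2). The mice were C57BL/6, 18 to 21 weeks old and treated with tamoxifen, so both genotypes carried the same Foxp3-driven EGFP and inducible Cre and received the same drug. How many animals went into a sample is not given in the sources used here.

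Extracellular ATP is an alarm signal for immune cells. CD39, a membrane enzyme, cuts ATP and ADP down to AMP, and CD73, anchored on the outer face of the membrane, turns AMP into adenosine. Mouse Treg cells are known to carry both enzymes. Adenosine dampens T cells mainly through the receptor encoded by Adora2a, and adenosine deaminase removes it by converting it to inosine.

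The table held whole counts of unique molecular identifiers (UMIs) in 10685 cells, of which 10680 were kept. Cells fell by barcode suffix into 6 sets of 1641 to 1902 cells, holding 3998172 to 4786590 UMIs, and the median cell of a set had 2000 to 2229. No label links these columns, 10685 in all, with a sample, so cKO and WT cells were not compared, the sets stay unlabelled and no group has replicates. Levels are a gene's UMIs per 1000000 UMIs (CPM), and intervals are at the 95% level and take in counting error alone. Some barcodes, 63 in all, occurred in more than 1 set. After each cell was thinned to 1000 UMIs, 10234 Treg cells remained. Of these, 59.1% had a UMI of Ikzf2, 74.2% of Cd3g and 13.3% of Cd4. The CD8 genes Cd8a and Cd8b1 were in 3 and 165 (1.61%) of these Treg cells. Foxp3 itself was in 2.26% of the Treg cells, at 19.5 to 22.5 CPM over the sets. The globin gene Hbb-bs ran from 1.25 to 1615 CPM over the sets and the myeloid gene Lyz2 from 2.50 to 137 CPM.

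In the GENCODE M21 annotation of mm10, Nt5e lies on chromosome 9 (88327197 to 88372092, plus strand; ENSMUSG00000032420.8) and Ada on chromosome 2 (163726584 to 163750239, minus strand; ENSMUSG00000017697.3). No other annotated gene overlaps either. Entpd1 lies on chromosome 19 (40612366 to 40741602, plus strand; ENSMUSG00000048120.16) and overlaps 3 annotated genes on its own strand (Gm16027, Gm8783 and AC166063.1). All 3 members are protein coding. The levels of Nt5e and Ada separated the cell classes below without overlap between sets. For Ada, which is not among the called genes, the gap was narrow and rests on 16 and 34 UMIs. The promoters of these 2 genes are therefore shown. They run from 250 bases before to 50 bases after the RefSeq start, chr9:88327359-88327658 on the plus strand and chr2:163750190-163750489 on the minus strand (GRCm38.p6), and capitals mark matches to the GC box of Sp1 factors, GGGCGG on either strand.
Nt5e promoter: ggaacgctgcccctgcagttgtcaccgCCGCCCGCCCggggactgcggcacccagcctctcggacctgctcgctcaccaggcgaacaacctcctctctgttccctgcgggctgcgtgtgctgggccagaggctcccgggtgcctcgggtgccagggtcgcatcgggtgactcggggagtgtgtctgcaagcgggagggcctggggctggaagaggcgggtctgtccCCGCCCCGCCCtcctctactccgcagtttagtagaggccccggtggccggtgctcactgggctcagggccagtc
Ada promoter: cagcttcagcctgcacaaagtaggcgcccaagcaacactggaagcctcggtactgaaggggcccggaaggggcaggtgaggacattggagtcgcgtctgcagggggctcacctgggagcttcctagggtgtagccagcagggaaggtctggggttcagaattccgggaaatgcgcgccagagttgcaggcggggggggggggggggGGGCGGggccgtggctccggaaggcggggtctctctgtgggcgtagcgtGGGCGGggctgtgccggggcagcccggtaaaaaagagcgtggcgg
The Nt5e window held 4 matches, which overlap in pairs, and was 71.0% G or C. The Ada window held 2 matches and was 68.0% G or C. Neither of the 2 RefSeq promoters of Entpd1 (64.0% and 48.7% G or C) held a match. Among 32851 mouse promoter windows of the same length, 35.7% held at least 1. None of the members' windows held the AP-1 and BACH core TGANTCA (7.81% of all windows), the CRE TGACGTCA (1.79%), the hypoxia core ACGTG (19.6%) or the forkhead core TGTTTNC (20.5%). Such matches are letters in a window and were not tested as binding sites.

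Nt5e was found in each barcode set at a similar level. It had 1724 UMIs in all, 67.9 CPM (64.7 to 71.2), and a UMI in 1512 cells (14.2% of those kept). The 6 sets had 72.5, 66.3, 58.2, 68.7, 69.5 and 71.6 CPM. Set 3 was lowest with an interval of 51.1 to 65.95 CPM, and set 1 highest with 65.1 to 80.6 CPM. Of the positive cells, 1326 held a single UMI, 164 held 2, 19 held 3, 2 held 4 and 1 held 5.

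Entpd1 had 390 UMIs, 15.4 CPM (13.9 to 17.0), in 377 cells (3.53%). The sets had 13.2, 14.004, 14.3, 17.2, 18.5 and 15.5 CPM, all with overlapping intervals. Ada had 166 UMIs, 6.54 CPM (5.58 to 7.61), in 162 cells (1.52%). The sets had 4.39, 6.00, 4.75, 8.35, 10.3 and 5.95 CPM, and the intervals of set 5 (7.36 to 13.9) and set 1 (2.72 to 6.71) did not overlap. The labels give no genotype for these sets, and the spread between them was not tested.

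Free RNA in droplets can put UMIs in cells that do not express a gene. Thinned to 1000 UMIs, 6.89% of Treg cells had an Nt5e UMI (6.41 to 7.40%), against 3.15% of 127 cells of the myeloid-like and B-cell-like states (0.865 to 7.87%). Entpd1 was in 1.73% of Treg cells (1.49 to 2.001%) and 1.57% of those cells (0.191 to 5.57%), and Ada in 0.518% (0.388 to 0.677%) and 0.787% (0.0199 to 4.31%). Median depths were 2128 and 2022 UMIs. Unthinned, the shares were 14.5% and 7.09% for Nt5e, 3.58% and 3.94% for Entpd1, and 1.53% and 3.15% for Ada. B cells and myeloid cells are themselves known to express Entpd1, so they are no clean reference for it. Whether they express Nt5e or Ada themselves was not tested. By the thinned share, no member set Treg cells apart from these 127 cells, whose interval also holds the Nt5e share of Treg cells. As a level, Nt5e had 68.5 CPM (65.3 to 71.8) in Treg cells and 26.5 CPM (12.1 to 50.4; 9 UMIs) in the 127 cells, without overlap. For Entpd1 the levels were 15.3 CPM (13.8 to 16.9) and 14.7 CPM (4.79 to 34.4), and for Ada 6.50 CPM (5.54 to 7.59) and 11.8 CPM (3.21 to 30.2). Of resting-like cells, described below, 3.76% had a thinned Nt5e UMI (2.69 to 5.10%), and of effector-like cells 8.58% (7.31 to 9.99%). The part of free RNA in the levels that follow was not tested.

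Cells were put into states by the markers they showed after thinning, none of which is a member. A cell took the state with the most distinct markers detected of 8 listed, with at least 2 required. Of 10234 Treg cells, 6382 stayed unassigned, 5923 of them because they showed fewer than 2 markers. The resting-like state (Ccr7, Igfbp4, Satb1, Lef1 and others) held 1038 cells. The effector-like class held 1748 cells in 3 states, led by S100a4 and Ccr2 (573 cells), by genes of T cell receptor stimulation such as Nr4a1 and Tnfrsf9 (629 cells) and by Ccl5 and Maf (546 cells).

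Nt5e was higher in effector-like than in resting-like Treg cells. Its level was 77.2 CPM (69.0 to 86.2; 317 UMIs) in effector-like cells, against 41.2 CPM (34.0 to 49.4; 115 UMIs) in resting-like cells. Effector-like cells of sets 1 to 6 had 98.7, 86.0, 73.5, 72.1, 66.2 and 72.1 CPM, and resting-like cells of the same sets had 45.2, 37.0, 31.5, 32.4, 52.2 and 54.1 CPM. Every effector-like value lay above every resting-like one. The ratio was 1.88-fold, a log2 difference of 0.91 (0.60 to 1.23), and ran from 0.32 to 1.20 over the 6 sets. A gene was called when it differed at least 1.5-fold in the same direction in 6 of 6 sets, with at least 100 UMIs over both classes. Nt5e was called higher, as were 11.2% of the 5890 genes measured, while 1.65% were called lower. The median gene had a log2 ratio of 0.23, and relative to it Nt5e was higher by 0.67.

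**Figure D1:**
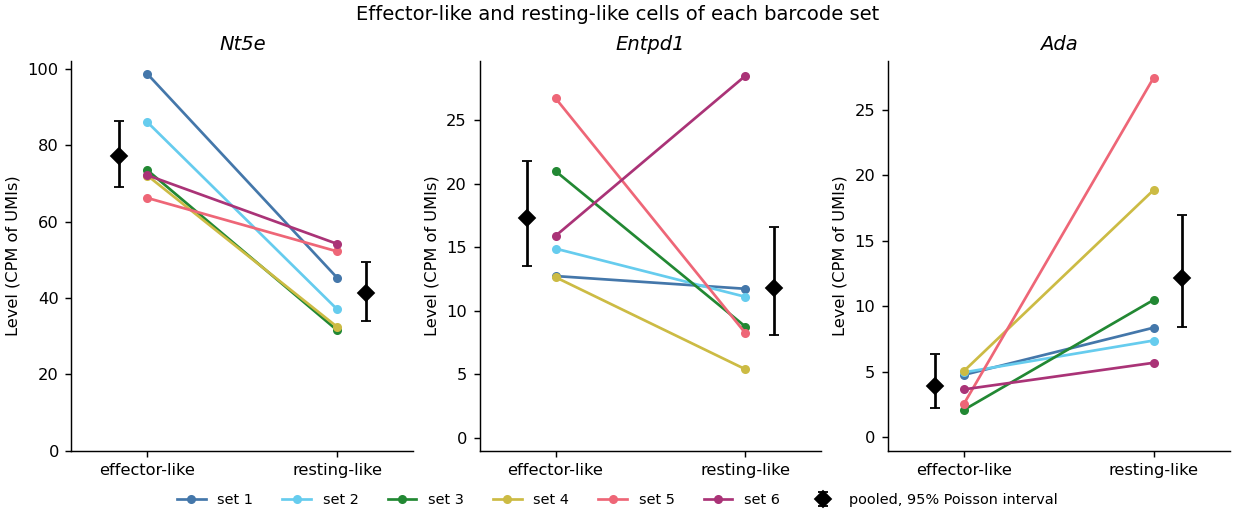
Level of Nt5e, Entpd1 and Ada (vertical axes, CPM of UMIs) in effector-like cells (left) and resting-like cells (right). Coloured points joined by a line are 1 barcode set, and black diamonds are pooled levels with exact Poisson 95% intervals. All 6 Nt5e lines fall to the right and all 6 Ada lines rise, while 1 Entpd1 line, that of set 6, goes against the other 5.

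Ada, which removes the product of CD73, ran the other way. It had 3.90 CPM (2.23 to 6.33) in effector-like cells and 12.2 CPM (8.43 to 17.0) in resting-like cells. Effector-like cells of sets 1 to 6 had 4.77, 4.96, 2.10, 5.06, 2.55 and 3.67 CPM, and resting-like cells had 8.38, 7.40, 10.5, 18.9, 27.5 and 5.70 CPM. The 2 ranges did not overlap but lay close, at 5.06 CPM in effector-like cells of set 4 and 5.70 CPM in resting-like cells of set 6. The log2 difference was -1.64 (-2.60 to -0.75), lower in 6 of 6 sets. It rests on 16 UMIs in effector-like and 34 in resting-like cells, under the minimum of 100, so Ada is not among the called genes. With the minimum lowered to 20 UMIs it would be called lower, as would 1.8% of genes (9.9% higher), and with a minimum of 1 UMI these shares are 2.47% lower and 7.33% higher. After thinning, 0.229% of effector-like cells (0.0624 to 0.585%) and 1.35% of resting-like cells (0.739 to 2.25%) had an Ada UMI.

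Entpd1, the CD39 gene, was not called. It had 17.3 CPM (13.5 to 21.8; 71 UMIs) in effector-like cells and 11.8 CPM (8.13 to 16.6; 33 UMIs) in resting-like cells, a log2 difference of 0.55 (-0.06 to 1.19). Effector-like cells of sets 1 to 6 had 12.7, 14.9, 21.0, 12.6, 26.7 and 15.9 CPM, and resting-like cells had 11.7, 11.1, 8.75, 5.40, 8.24 and 28.5 CPM. Sets 1 to 5 were higher in effector-like cells and set 6 was lower. Without set 6 the log2 difference was 0.91 (0.19 to 1.67), and without set 5 it was 0.29 (-0.39 to 0.99).

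Depth and markers of other cells also differed between the classes. Effector-like cells had a median of 1940.5 UMIs and resting-like cells 2614, with medians of 1.80% and 1.70% mitochondrial UMIs. The part of depth in the differences was not tested. The 7 myeloid markers summed to 155.5 to 221 CPM over the sets in effector-like cells and 99.8 to 121.4 CPM in resting-like cells, 5 of 7 being higher in effector-like cells. Cst3 made up most of this, with 168.6 CPM in effector-like and 93.4 CPM in resting-like cells, and the other 6 had few UMIs. After thinning, Cst3 was in 12.7% of all Treg cells and Lyz2 in 1.13%. Whether the Cst3 UMIs came from myeloid cells was not tested. Lyz2 had 41 UMIs in effector-like and 23 in resting-like cells, Tyrobp 16 and 5, Fcer1g 12 and 4, Cd68 5 and 2, and Csf1r and Spi1 had 1 each in either class. The 8 B cell markers summed to 39.7 to 77.6 CPM and 35.0 to 57.7 CPM, 5 of 8 being higher in effector-like cells. The 4 erythroid markers summed to 4.96 to 291 CPM and 0 to 283 CPM, all 4 higher in effector-like cells when pooled. Of the 2 CD8 T cell markers, Cd8a had 1 UMI in effector-like cells and 0 in resting-like cells, and Cd8b1 had 70 and 62. The pair summed to 10.1 to 28.6 CPM and 15.1 to 31.3 CPM. When the deepest 2% of cells and all cells carrying a UMI of Hbb-bs, Cd8a, Lyz2 or Cd79a were left out, the log2 difference was 0.95 for Nt5e (0.61 to 1.30), 0.44 for Entpd1 (-0.22 to 1.13) and -1.73 for Ada (-2.84 to -0.72). That filter did not use Cst3, Cd79b or Cd8b1, which held most UMIs of the myeloid, B cell and CD8 lists. The part of RNA from other cells in the differences was not tested.

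Across single states, Nt5e set the resting-like cells apart more than it ranked the others. In order of level it had 81.2 CPM (67.8 to 96.5) in TCR-stimulated-like cells, 79.9 CPM in Ccl5-like cells and 73.0 CPM in Il2ra-Lrrc32-Gpr83-like cells. Unassigned cells had 71.1 CPM (66.9 to 75.5) and S100a4-Ccr2 effector-like cells 70.4 CPM. Interferon-like cells had 48.7 CPM (32.4 to 70.4) and resting-like cells 41.2 CPM. Neighbours in this order did not differ beyond their intervals, but the intervals of the first 5 lay wholly above that of resting-like cells. In 46 follicular-like cells 13 Nt5e UMIs gave 153 CPM (81.2 to 261), in 13 Tmem176-Th17-like cells 4 UMIs gave 119 CPM (32.5 to 305), and in 51 cycling-like cells 25 UMIs gave 59.2 CPM (38.3 to 87.4).

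Entpd1 showed no neighbours beyond their intervals in any order of states. Among the 7 larger states it was highest in interferon-like cells, 24.4 CPM (13.3 to 40.9) from 14 UMIs, followed by Ccl5-like cells at 21.1 CPM and TCR-stimulated-like cells at 17.0 CPM. Il2ra-Lrrc32-Gpr83-like cells had 16.4 CPM, unassigned cells 15.03 CPM, S100a4-Ccr2 effector-like cells 14.5 CPM and resting-like cells 11.8 CPM. The interferon-like values ran from 7.73 to 48.0 CPM over the sets, wider than the spread between states. In the small states, 3 UMIs gave 35.2 CPM (7.26 to 102.9) in follicular-like cells, 1 UMI gave 29.8 CPM (0.755 to 166) in Tmem176-Th17-like cells and 3 UMIs gave 7.11 CPM (1.47 to 20.8) in cycling-like cells. Among the larger states Ada had its highest level in resting-like cells, 12.2 CPM, then 9.35 CPM in Il2ra-Lrrc32-Gpr83-like and 8.70 CPM in interferon-like cells. Ccl5-like cells had 6.15 CPM, unassigned cells 5.65 CPM, TCR-stimulated-like cells 3.78 CPM and S100a4-Ccr2 effector-like cells 2.18 CPM (0.449 to 6.37). Neighbours again overlapped, and resting-like cells lay wholly above unassigned, TCR-stimulated-like and S100a4-Ccr2 effector-like cells. Cycling-like cells had 5 Ada UMIs, 11.8 CPM (3.85 to 27.6). The 46 follicular-like cells had 0 Ada UMIs, with an upper interval limit of 43.3 CPM.

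**Figure D2:**
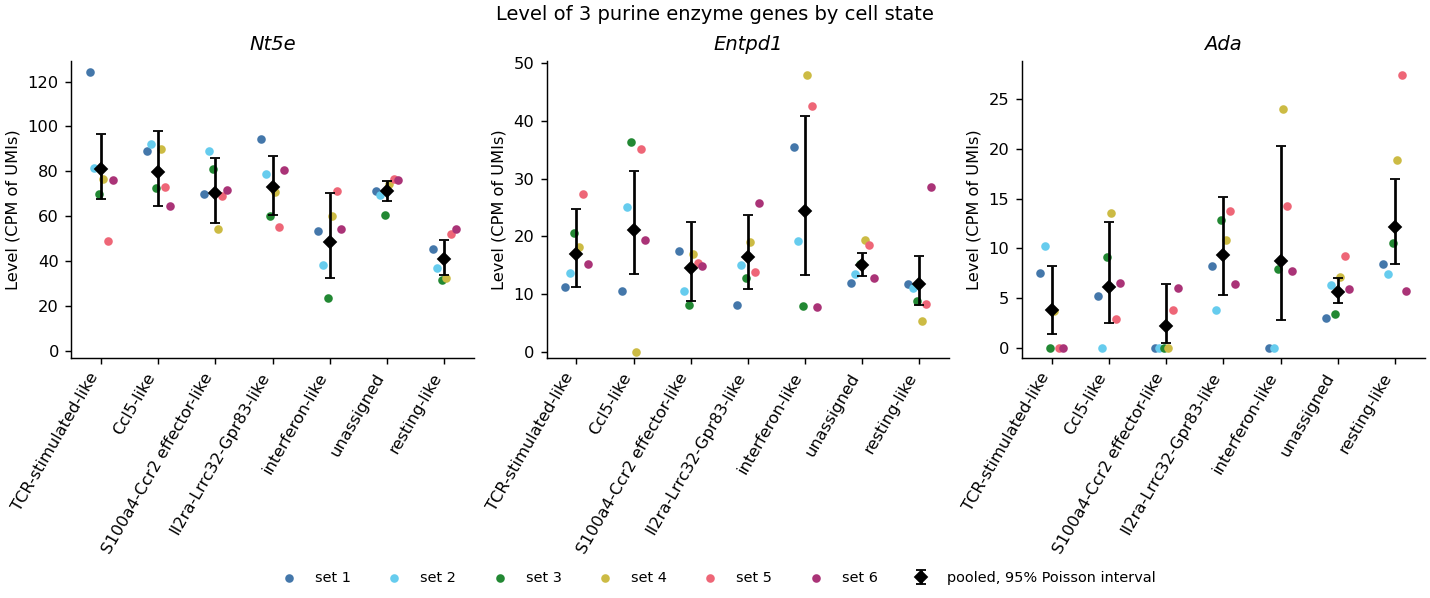
Level of Nt5e, Entpd1 and Ada (CPM of UMIs) in 7 cell states. Coloured points are the 6 barcode sets, and black diamonds are pooled levels with exact Poisson 95% intervals. Resting-like cells have the lowest pooled Nt5e level (41.2 CPM) and the highest pooled Ada level (12.2 CPM).

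Because most cells stayed unassigned, the members were also read over all Treg cells by the number of markers each cell showed. These are the markers that set the states, and the cells of both classes are included. The steps are therefore not independent of the class comparison. With 0, 1, 2 and 3 or more resting markers, Nt5e had 78.6, 61.7, 39.4 and 43.0 CPM. The sets ranged from 72.4 to 82.1 CPM at 0 markers and from 22.3 to 61.4 CPM at 3 or more, without overlap. Ada had 5.06, 6.59, 10.7 and 16.8 CPM over the same steps, and 5 of 6 sets were higher at 3 or more markers than at 0. Entpd1 had 15.9, 16.3, 10.7 and 11.5 CPM, with 2 sets higher and 4 lower at the end of the scale. With 0, 1, 2, 3 and 4 or more effector markers, Nt5e had 57.6, 71.5, 73.0, 86.0 and 79.5 CPM. Here 5 of 6 sets were higher at 4 or more markers than at 0, and set 4 was lower. Entpd1 had 14.7, 13.8, 16.5, 18.4 and 17.9 CPM, with 3 sets in each direction, and Ada had 8.39, 5.09, 6.08, 4.48 and 6.16 CPM. Median depth was 1992.5 UMIs at 0 resting markers and 2719.5 at 3 or more, and 2343 at 0 effector markers and 2011.5 at 4 or more.

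**Figure D3:**
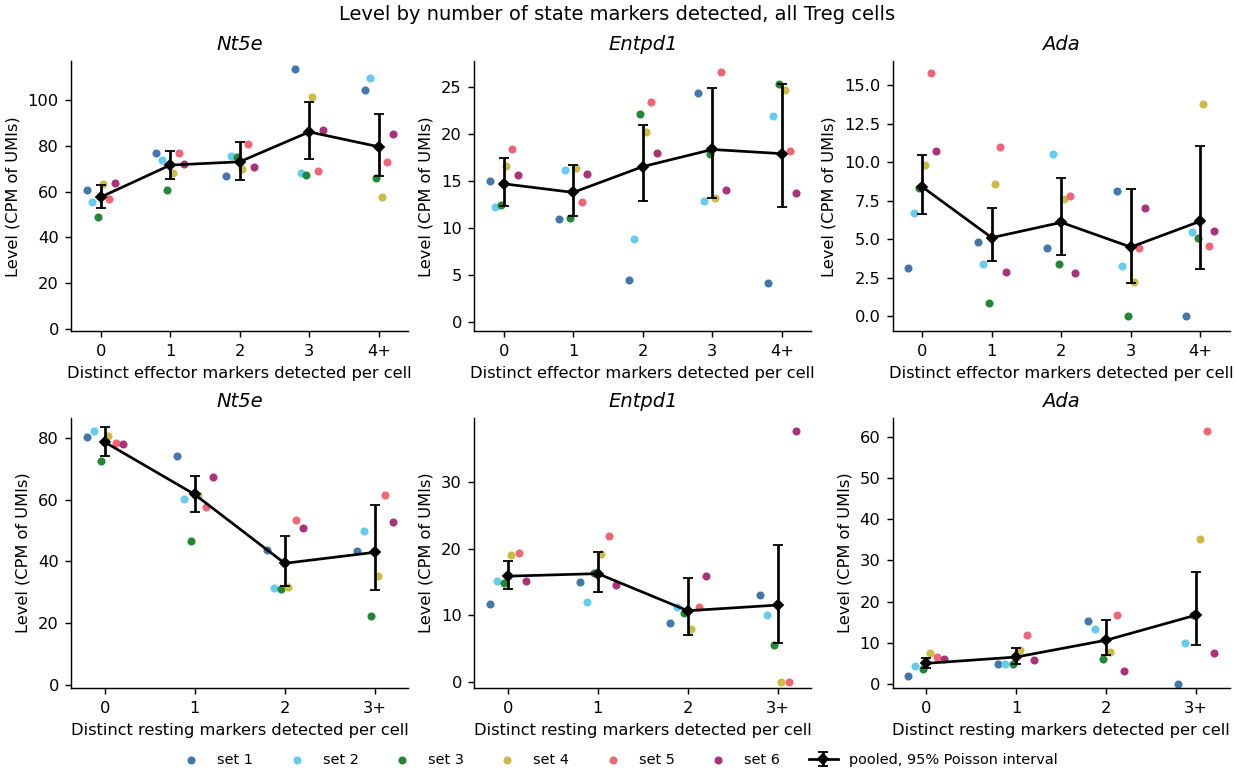
Level of Nt5e, Entpd1 and Ada (CPM of UMIs) in all Treg cells by the number of distinct effector markers (upper row) or resting markers (lower row) detected per cell. Coloured points are the 6 barcode sets, and black diamonds are pooled levels with exact Poisson 95% intervals. Nt5e is at 78.6 CPM with 0 resting markers and at 43.0 CPM with 3 or more, while Ada is at 5.06 and 16.8 CPM.

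Some of the single genes examined marked cells with more Nt5e. Treg cells with a UMI of Ikzf2, which encodes Helios, had 78.8 CPM of Nt5e, against 55.9 CPM in those without, a log2 difference of 0.50 (0.35 to 0.64), higher in 6 of 6 sets. Cells with a UMI of Izumo1r, which encodes the surface protein FR4, had 76.5 CPM of Nt5e, against 57.2 CPM without, 0.42 on the log2 scale (0.27 to 0.57), again higher in 6 of 6 sets. For Nrp1, which encodes neuropilin-1, the levels were 90.6 CPM with and 64.4 CPM without a UMI, 0.49 on the log2 scale (0.32 to 0.66), higher in 5 of 6 sets. The Izumo1r difference was also seen inside both classes. It was 0.66 (0.31 to 1.03) within effector-like cells, at 90.6 CPM with and 57.2 CPM without a UMI, and 0.61 (0.05 to 1.18) within resting-like cells, at 50.2 CPM with and 32.9 CPM without. The Ikzf2 difference was 0.40 (0.03 to 0.78) within effector-like cells and 0.11 (-0.48 to 0.68) within resting-like cells. The Nrp1 difference was 0.36 (-0.03 to 0.74) within effector-like cells and -0.03 (-1.13 to 0.91) within resting-like cells, where 3 of 6 sets were higher.

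Entpd1 had 17.4 CPM in cells with an Izumo1r UMI and 12.4 CPM in those without, a log2 difference of 0.49 (0.17 to 0.81), higher in 5 of 6 sets. Within effector-like cells this difference was 0.97 (0.18 to 1.83), and within resting-like cells it turned to -0.49 (-1.62 to 0.59), lower in 4 of 6 sets. For Ikzf2 the Entpd1 difference was 0.18 (-0.12 to 0.49). Ada had 12.1 CPM in cells with an Il2ra UMI and 5.95 CPM in those without, 1.02 on the log2 scale (0.37 to 1.63), and 2.86 CPM with and 7.17 CPM without an Nrp1 UMI, -1.32 (-2.36 to -0.44). Each held in 5 of 6 sets over all Treg cells. Inside the classes Ada UMIs were few: effector-like cells had 0 with and 16 without an Il2ra UMI, and within resting-like cells the Il2ra difference was -0.25 (-3.36 to 1.72). For Nrp1 the Ada difference was -1.83 (-7.23 to 0.87) within effector-like and -0.01 (-2.36 to 1.67) within resting-like cells. Il2ra encodes CD25, the high-affinity chain of the IL-2 receptor. Only 266 Treg cells had a Bach2 UMI after thinning, and their Nt5e level was 51.4 CPM, against 69.0 CPM in cells without, -0.42 on the log2 scale (-0.95 to 0.06). For Entpd1 the Bach2 difference was -1.41 (-3.29 to -0.04), lower in 5 of 6 sets, from 4 UMIs in cells with a Bach2 UMI. Since 3 samples were Bach2 cKO and no cell is tied to a sample, genotype cannot be told apart from Bach2 detection here. Foxp3 detection gave an Nt5e difference of 0.12 (-0.38 to 0.57). For Il2ra the Nt5e difference was -0.14 (-0.40 to 0.11), lower in 4 of 6 sets.

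The genes around the members were taken from lists of surface enzymes, receptors, transporters and intracellular purine enzymes, 81 genes in all. Of these 59 were in the table and 30 had enough UMIs to be called. Of the 30, 6 were called higher and 1 lower in effector-like cells, beside backgrounds of 11.2% and 1.65%. Their median log2 ratio was 0.25, against 0.23 for all genes measured. Among surface enzymes 2 of 3 measured genes were higher, among adenosine receptors 1 of 1, among transporters 2 of 4 with 1 lower, and among intracellular enzymes 1 of 18. None of the 3 ATP and related nucleotide receptors was called, nor was Dpp4, whose product CD26 anchors adenosine deaminase at the surface of human T cells.

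Adora2a, whose product senses adenosine, had the largest ratio of the 30. Its level was 41.9 CPM (172 UMIs) in effector-like cells and 13.6 CPM (38 UMIs) in resting-like cells, a log2 difference of 1.62 (1.11 to 2.17). Effector-like cells of sets 1 to 6 had 27.1, 28.1, 46.2, 55.6, 34.4 and 55.0 CPM, and resting-like cells had 10.1, 9.25, 17.5, 16.2, 22.0 and 8.55 CPM. The ranges did not overlap. Cd38, an enzyme that consumes NAD at the cell surface, had 31.4 CPM in effector-like and 13.2 CPM in resting-like cells (log2 difference 1.25, 0.71 to 1.82). Art2b, which uses NAD to ADP-ribosylate surface proteins including P2X7, had 28.5 and 12.5 CPM in the same order (1.19, 0.63 to 1.78).

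Transport genes split. Slc29a1, the equilibrative nucleoside transporter ENT1, had 51.9 CPM in effector-like and 29.0 CPM in resting-like cells (log2 difference 0.84, 0.46 to 1.23). Panx1, a channel that releases ATP, had 52.6 CPM in effector-like and 34.0 CPM in resting-like cells (0.63, 0.28 to 0.99), and relative to the median gene its difference of 0.40 was below 1.5-fold. Slc17a9, the vesicular nucleotide transporter, was the gene called lower, with 30.9 CPM in effector-like and 63.3 CPM in resting-like cells (-1.03, -1.37 to -0.70). Slc28a2, a concentrative nucleoside transporter, was not called (0.17, -0.29 to 0.64).

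Downstream of deamination, Pnp, which cleaves inosine, had 34.6 CPM in effector-like and 19.0 CPM in resting-like cells (log2 difference 0.87, 0.40 to 1.35), with the caveat that mouse Pnp has a close copy, Pnp2, with which reads may be shared. Adk, which clears adenosine by phosphorylation, had 42.2 CPM in effector-like and 42.6 CPM in resting-like cells (-0.01, -0.36 to 0.33). Samhd1, which degrades deoxynucleotides, had 299.5 CPM in effector-like and 388.3 CPM in resting-like cells (-0.37, -0.49 to -0.26). It was lower in 6 of 6 sets but by less than 1.5-fold, and relative to the median gene its difference was -0.61. The ATP-gated channel genes P2rx7 and P2rx4 differed by 0.41 (-0.00 to 0.83) and 0.23 (-0.16 to 0.64), and P2ry10 by 0.17 (-0.26 to 0.61). The salvage enzymes Hprt and Aprt differed by 0.41 (0.22 to 0.60) and 0.36 (0.19 to 0.53), less than 1.5-fold though in 6 of 6 sets. The other measured list genes were not called and lay between -0.31 (Impdh1) and 0.53 (Gmps).

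**Figure D4:**
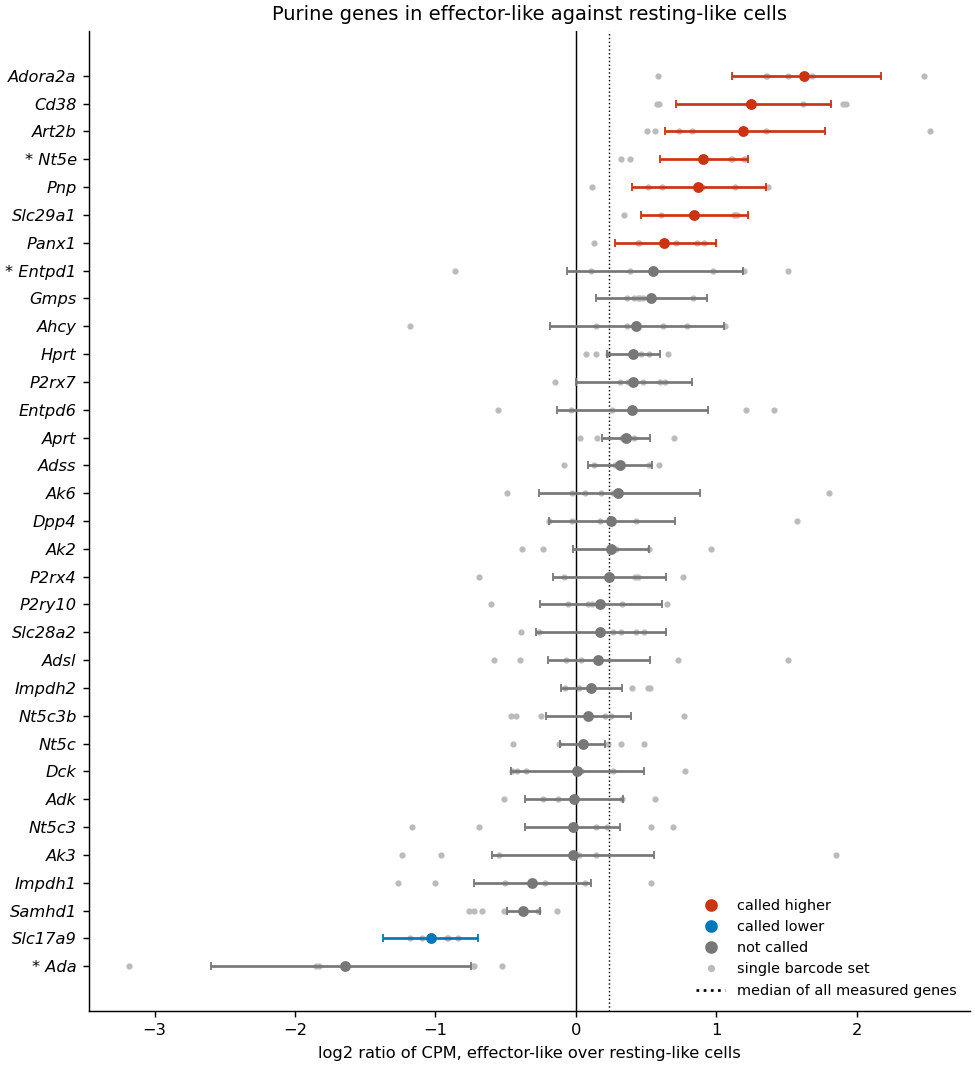
Log2 ratio of CPM in effector-like over resting-like cells (horizontal axis) for the 3 members, marked by asterisks, and the 30 purine genes with at least 100 UMIs. Large points with bars are pooled ratios with exact 95% intervals, small grey points single barcode sets, and the dotted line the median of all genes at 0.23. Adora2a stands at the top at 1.62, and Slc17a9 at -1.03 and Ada at -1.64 at the bottom.

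Nt5e and Entpd1 were rarely found in the same cell, and at this depth their overlap could not be told from the product of their separate shares. Of 10234 Treg cells thinned to 1000 UMIs, 705 had an Nt5e UMI, 177 an Entpd1 UMI and 13 both, where the product of the 2 shares gives 12.2. Entpd1 was in 1.84% of cells with an Nt5e UMI (0.985 to 3.13%) and in 1.72% of cells without (1.47 to 2.003%), a ratio of 1.07 (0.56 to 1.88). In 20 other random thinnings, 8 to 20 cells had both, and 18 of these draws had more than their product, which lay between 10.6 and 12.5. With all UMIs, 65 of 10680 cells had both and the product was 53.4. The shares were then 4.30% with an Nt5e UMI (3.33 to 5.45%) and 3.40% without (3.04 to 3.795%), a ratio of 1.26 (0.95 to 1.66). Depth raises both detections together, so cells were also split into 3 equal parts by depth. From the shallowest to the deepest, the ratio was 1.37 (0.69 to 2.50), 1.19 (0.69 to 1.95) and 1.15 (0.76 to 1.69). For thinned Treg cells it was 1.25, 1.23 and 0.65 in the same order, and all of these intervals include 1.

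The sets did not go one way. Unthinned ratios were 1.32, 1.89, 1.20, 0.79, 0.83 and 1.87 in sets 1 to 6, each with an interval that includes 1. In effector-like cells Entpd1 was in 6.20% of cells with an Nt5e UMI (3.66 to 9.75%) and 3.60% of cells without (2.71 to 4.68%), a ratio of 1.73 (0.94 to 3.03) from 17 cells with both. Thinned, 6 effector-like cells had both, where the product is 2.40, and the ratio was 2.91 (0.96 to 7.39). In resting-like cells 2 cells had both with all UMIs and 0 after thinning. The 65 cells with both UMIs had a median of 2607 UMIs. Of the 64 that could be thinned, 26.6% were effector-like (16.3 to 39.1%) and 3.13% resting-like (0.381 to 10.8%). Cells with Nt5e alone were 18.0% effector-like and 6.99% resting-like, those with Entpd1 alone 17.3% and 9.12%, and those with neither 16.6% and 10.6%. Median depths in these groups were 2199, 2408 and 2061 UMIs.

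**Figure D5:**
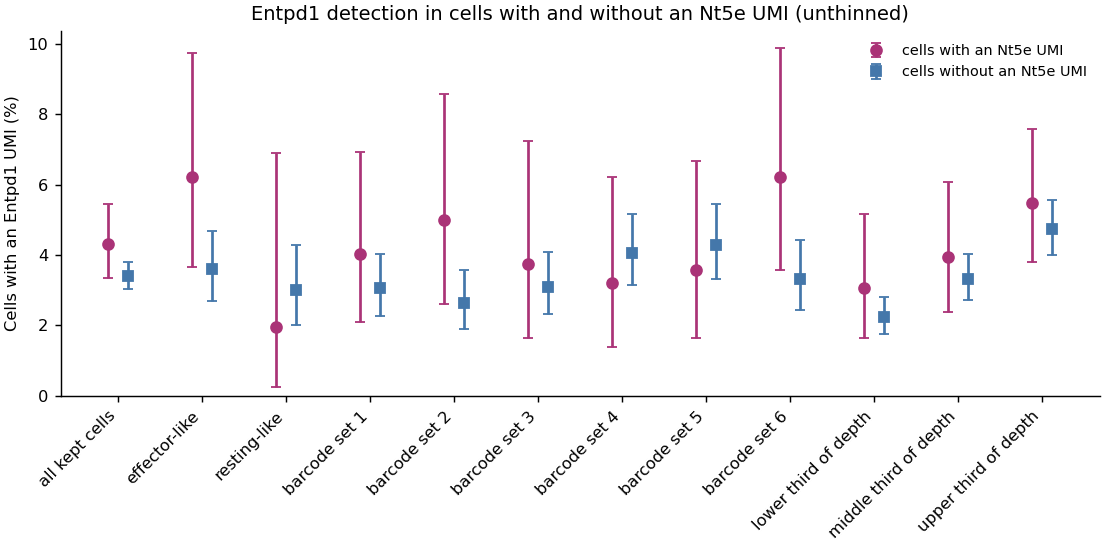
Share of cells with an Entpd1 UMI (vertical axis, %), without thinning, among cells with an Nt5e UMI (magenta circles) and without 1 (blue squares). Bars are exact binomial 95% intervals. Over all kept cells the shares are 4.30% and 3.40%, and the intervals overlap in every group drawn.

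The other pairs gave no more. Nt5e and Ada were found together in 2 thinned Treg cells, where the product is 3.65, and in 23 cells with all UMIs, where it is 22.9. Entpd1 and Ada shared 0 thinned cells (product 0.917) and 8 cells with all UMIs (product 5.72). Nt5e and Adora2a shared 25 thinned cells (product 22.5), a ratio of 1.12 (0.71 to 1.69).

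Which genes differed between cells with and without a member UMI depended on the random thinning. Among 7054 genes measured in thinned Treg cells, 95 (1.35%) were called higher and 30 (0.425%) lower in the 705 cells with an Nt5e UMI. The largest ratios upward were those of Txnrd1, a thioredoxin reductase, with 41.1 CPM in cells with and 20.04 CPM in cells without an Nt5e UMI, and of Ncmap, Fiz1, Mrpl46, Alg1 and Pdcd7. The largest downward were those of Donson, Usp18, Ttc13, Cdk13, Gm561 and Gins1, with 3 to 12 UMIs each in Nt5e cells. Each of these 12 was called in at most 4 of 20 other thinnings. In the 177 cells with an Entpd1 UMI, 313 genes (4.44%) were called higher and 26 (0.369%) lower. Ratios of single sets have 0.5 UMIs added, so a set of few cells with 0 UMIs can score as higher. Ada, for example, had 0 UMIs in the 34 effector-like cells with a Foxp3 UMI, yet 6 of 6 sets scored higher. The rule therefore favours higher calls where cells are few, and 313 against 26 cannot be read as a direction. How many of the 313 rest on this was not tested. The largest upward ratio was that of Cxcl10, an interferon-induced chemokine, with 84.7 CPM in cells with and 25.8 CPM in cells without an Entpd1 UMI, from 15 UMIs in Entpd1 cells. It was called in 5 of 20 other thinnings, and Ccdc25, Nsmaf, Tsc1, Smg5 and Sh3bp5 in 2 to 8. The named genes called lower (Dennd1b, Stk39, Esf1, Pex14, Rbm48 and Gbp9) had 0 UMIs in Entpd1 cells, where a gene of 200 UMIs would have 3.46, so no ratio is given.

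Over 41 points, each a state in 1 set, the profile of Nt5e was most like that of Hmgb3 (Pearson r 0.74), Xist (0.71), Mxd4 (0.68), Ikzf2 (0.68) and Aamp (0.66) among 4864 genes. The points share libraries and depth, and Nt5e had a median of 19 UMIs per point. For Entpd1, at a median of 4 UMIs per point, the closest were Pbrm1 (0.60), Rin3, Csnk1g3, Peli1 and Cox19. For Ada, at a median of 2 UMIs and with 9 points at 0, they were Oat (0.61), Socs3 (0.58), Impdh1 (0.57), Rcn1 and Treml2. These correlations describe the points and carry no p.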

How the data were processed

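The authors deposited raw counts of UMIs per gene and cell, and a second table in natural log units, which the authors' deposited values show to be ln(1 + count scaled to the cell total) for 10464 cells. The counts were used here. The submitters' processing notes name Cell Ranger, Seurat, HISAT2, cutadapt and FastQC, with mm10 as build; versions, and which step each made, are not given in the sources used here. The labels' protocols also list bulk RNA extraction steps. The 10685 cell columns carry no sample name and were not tied to a sample.

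Members, lists and comparisons were chosen with earlier results of these data known. Cells were kept from 200 genes upward with mitochondrial UMIs below 10%, and 315 below 1000 UMIs left out of thinning (seed 1). No doublet caller was run. CPM have exact Poisson intervals, ratios exact conditional binomial ones and shares Clopper-Pearson ones; 0.5 UMIs were added in ratios of single sets, and no p-value was computed from cells. Named genes were the members, list genes with at least 100 UMIs, the 6 largest called ratios each way among genes with at least 200 UMIs in cells with a member UMI, and the 5 most alike profiles over points of at least 30 cells (log2 of CPM + 10, genes of at least 500 UMIs). The ratio step was tested on simulated data. Python 3.11.15, numpy 2.4.6, scipy 1.17.1, pandas 2.3.3 and matplotlib 3.10.9 were used.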

Additional observations from a re-analysis of the deposited data

How the results depend on the processing

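The log2 difference between effector-like and resting-like cells kept its direction under all 23 alternatives run for each member: 0.67 to 1.06 for Nt5e, 0.21 to 1.18 for Entpd1 and -2.88 to -0.98 for Ada. Of the 23, 3 are the lowest, median and highest value over 20 other thinnings, and the alternatives share cells. Leaving out 1 barcode set gave 0.83 to 1.02, 0.29 to 0.91 and -1.84 to -1.23. Without the shared barcodes, chosen after seeing the data, the values were 0.88, 0.57 and -1.56. With at least 3 markers per cell the Ada difference was -2.88, the effector-like levels were 68.9 CPM for Nt5e and 2.22 CPM for Ada, and 0 purine genes were called higher. Thinned to 500 UMIs, resting-like Nt5e was 33.7 CPM and effector-like Ada 6.42 CPM, and 0 purine genes were called higher. Asking for at least 3 markers cannot leave more cells per class than asking for at least 2. Why 0 purine genes were called higher in either setting was not tested. In 20 other thinnings at least 3 purine genes were called higher. With totals without ribosomal and mitochondrial genes, or relative to the median gene, 4 were called higher and 2 lower. For none of these settings was the share of all genes called recorded, so these purine counts have no background beside them. In the other thinnings up to 495 genes were called higher and as few as 14 lower in Entpd1-UMI cells, and the Ikzf2 difference in Nt5e was as low as 0.33. For these the cause was not tested, and the Entpd1 counts come from the rule that favours higher calls where cells are few. The ratio of Entpd1 shares with over without an Nt5e UMI ran from 0.68 to 1.83 over 14 alternatives, counted in the same way. With at least 20 UMIs in place of 100, 9.90% of genes were called higher and with at least 1 UMI 7.33%.

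No paired analysis was possible because no column was tied to a sample, as far as cKO against WT by replicate number is concerned. The effector-like and resting-like classes were compared within each barcode set. Detection is the limit: with 166 Ada UMIs and 390 Entpd1 UMIs in all, single states hold a few UMIs per set, and a protein such as CD39 can be present where its RNA is not detected.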

Other observations

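Among the purine list genes under the minimum of 100 UMIs, Art3, a relative of Art2b, was singled out after its values were seen. It had 58 UMIs in effector-like cells (14.1 CPM, 10.7 to 18.3) and 6 UMIs in resting-like cells (2.15 CPM, 0.788 to 4.67), a log2 difference of 2.72 (1.51 to 4.22), and was higher in effector-like cells in 6 of 6 barcode sets.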
